A study of Homo sapiens with 6 samples.

Results

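The genes described here are 6 of the 1630 in the deposited table, taken by name for their place in signalling by transforming growth factor beta (TGF-beta) and activin: the ligand genes TGFB3 and INHBA, the antagonist gene FSTL3, and TAGLN, SNAI2 and IGFBP3, which are known to respond to these ligands. The cells were U87MG, a human glioblastoma cell line, sequenced as 2 groups of 3 libraries. The shControl libraries, given the genotype NC, carried a control short hairpin RNA, and the shCREPT libraries, given the genotype CREPT Knockdown, carried a hairpin against CREPT, the RPRD1B product, which binds the tail of RNA polymerase II. The labels give no time, medium or ligand treatment, and do not say how many hairpin sequences or cell clones were used. Separate cultures are not mentioned either, so p-values reflect library-to-library spread alone, and that spread could be technical.

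TGF-beta and activin are secreted dimers of one protein family. They bind paired serine/threonine kinase receptors on the cell surface, which phosphorylate SMAD2 and SMAD3, and these join SMAD4 and act on target genes in the nucleus. In glioblastoma the pathway is known for effects on invasion, mesenchymal traits and suppression of immune cells.

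In shCREPT cells TGFB3, SNAI2 and IGFBP3 fell and FSTL3 rose. TGFB3 was 2.78-fold lower, SNAI2 2.17-fold lower and IGFBP3 2.20-fold lower, and FSTL3 was 1.91-fold higher, as ratios of the means of 3 libraries. INHBA and TAGLN were too low for the main test; their shCREPT means were 1.95-fold higher and 3.52-fold lower. The falls of SNAI2 and IGFBP3 depend on the scaling of the libraries and were no longer called after the rescaling described below. That rescaling rests only on genes the authors marked as changed, more of them down than up. It therefore raises shCREPT by construction, and which scaling is right cannot be told from the listed genes.

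Each row of the table had been marked as changed by the authors, with an absolute log2 fold change of at least 1.0009 and an adjusted p-value of at most 0.0497, so 100% of listed genes carry the mark and a test on this table repeats their selection. Of the 1630 genes, 657 (40.3%) were marked up and 973 (59.7%) down. Values are the authors' normalized expression values, of a kind the sources used here do not state, and they summed over the listed genes to between 31893.69 and 33330.8 per library; read depth is unknown. Within those sums the mitochondrial ribosomal RNA MT-RNR1 moved with the groups, taking 9.35 to 10.5% in shControl and 18.6 to 20.9% in shCREPT; its part in the changes of the 6 genes was not tested. Levels are therefore compared between libraries for 1 gene and not between genes. RPRD1B has no row, so the knockdown was not checked here. Among 8 glioma and astrocyte markers, GFAP, S100B and SLC1A3 have rows and were all marked down. SOX2, NES, VIM, OLIG2 and AQP4 have none. The 3 rows summed to 498.3 to 528.5 in shControl and 72.5 to 88.9 in shCREPT. GFAP, the largest part of these sums, went from 434 ± 13.5 to 45.5 ± 3.75 (SD, n = 3).

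TGFB3, INHBA and FSTL3 are the ligand and antagonist genes of the set. On GRCh38, in GENCODE 29, TGFB3 lies on chromosome 14 from 75958099 to 75982991 on the minus strand, INHBA on chromosome 7 from 41667168 to 41705834 on the minus strand, and FSTL3 on chromosome 19 from 676365 to 683399 on the plus strand. Their promoters are shown because the ligand TGFB3 and the antagonist FSTL3 moved apart. Each run holds the 250 bases before a RefSeq start site on GRCh38.p14, 5′ to 3′ on the gene's strand. RefSeq and GENCODE starts differ: the INHBA window lies inside the GENCODE gene, the FSTL3 window runs past the GENCODE start, and the TGFB3 window lies wholly upstream. The runs are shown with capitals marking a match to CAGAC, the short letters bound by SMAD3 and SMAD4 (searched on both strands, as CAGAC or GTCTG), or to the CArG box, the site of serum response factor.
TGFB3, chr14:75983012-75983261, minus strand: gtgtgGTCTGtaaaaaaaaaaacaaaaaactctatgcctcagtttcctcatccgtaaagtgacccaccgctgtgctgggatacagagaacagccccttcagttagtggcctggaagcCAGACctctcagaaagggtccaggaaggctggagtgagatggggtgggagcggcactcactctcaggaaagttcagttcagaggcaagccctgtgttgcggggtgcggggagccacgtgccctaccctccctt
INHBA, chr7:41703091-41703340, minus strand: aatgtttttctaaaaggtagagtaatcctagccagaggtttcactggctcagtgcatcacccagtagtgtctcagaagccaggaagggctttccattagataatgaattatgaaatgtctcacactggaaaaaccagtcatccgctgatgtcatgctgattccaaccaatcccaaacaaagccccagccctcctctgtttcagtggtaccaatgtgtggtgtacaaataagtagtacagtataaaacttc
FSTL3, chr19:676142-676391, plus strand: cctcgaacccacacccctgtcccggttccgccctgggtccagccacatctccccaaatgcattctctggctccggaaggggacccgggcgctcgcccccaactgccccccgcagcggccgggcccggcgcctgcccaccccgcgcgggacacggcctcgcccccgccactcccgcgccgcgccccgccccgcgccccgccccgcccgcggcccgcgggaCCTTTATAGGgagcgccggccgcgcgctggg
TGFB3 had CAGAC at bases −133 to −129 from the start and GTCTG at −245 to −241, FSTL3 had 1 CArG box match at −31 to −22, which also holds the letters TATA, and INHBA had neither. Of 35116 promoter windows of this length, 38.0% held CAGAC on either strand and 1.16% a CArG box. The second listed start of TGFB3 and the promoter of IGFBP3 held neither. The promoters of SNAI2 and TAGLN were not examined. GC content was 54.8% for TGFB3, 42.8% for INHBA and 80.0% for FSTL3, against a median of 58.0% over all windows. These matches are letters in a window, and no binding was measured.

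TGFB3 encodes TGF-beta 3, secreted in a latent form that must be released before it can bind its receptors. Its values were 17.21, 21.68 and 18.71 in shControl replicates 1, 2 and 3 and 6.54, 6.71 and 7.47 in shCREPT replicates 1, 2 and 3. Every shCREPT library was below every shControl library, with a wide gap between the groups. The mean went from 19.2 ± 2.27 to 6.91 ± 0.495 (SD, n = 3). On the log2(value + 1) scale TGFB3 fell by 1.35 ± 0.11 (SE; limma adjusted p = 3.58e-05 with Benjamini-Hochberg adjustment over 1184 tested genes). The authors' deposited table gives it a log2 fold change of −1.47, and 45.0% of listed genes have a smaller absolute value there. IFT43, on the other strand, overlaps 24893 bases of TGFB3, and the non-coding TGFB3-AS1 overlaps 664; neither has a row, and the labels do not say whether the libraries keep the strand.

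INHBA encodes the beta A subunit, which forms activin A as a dimer with itself and inhibin A with the alpha subunit INHA. Its values were 0.47, 0.34 and 0.59 in shControl and 1.15, 0.76 and 0.82 in shCREPT. The groups did not overlap, but 1 library alone reached a value of 1, so INHBA missed the filter of at least 1 in at least 3 libraries. Its mean went from 0.467 ± 0.125 to 0.91 ± 0.21 (SD, n = 3). The difference on the log2(value + 1) scale was 0.38, which understates a low gene. Without the filter limma gave it an adjusted p of 0.0168, in a fit that called 91.8% of the 1630 listed genes. The authors' deposited table marks INHBA up, with a fold change of 2.30. The non-coding INHBA-AS1 overlaps 11919 bases of INHBA on the other strand and has no row.

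FSTL3 encodes a follistatin-related glycoprotein that binds activins and myostatin and keeps them from their receptors. Its values were 31.18, 30.94 and 30.51 in shControl and 57.64, 58.44 and 61.06 in shCREPT. FSTL3 was the tightest of the 6 genes: the coefficient of variation between libraries was 1.10% in shControl and 3.03% in shCREPT, against medians of 12.7% and 12.7% over the tested genes. The mean went from 30.9 ± 0.339 to 59.0 ± 1.79 (SD, n = 3). FSTL3 rose by 0.91 ± 0.07 on the log2(value + 1) scale (SE; limma adjusted p = 3.49e-05). In the authors' deposited table its log2 fold change is 1.10, which is larger than that of only 12.6% of listed genes in absolute size.

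**Figure D1:**
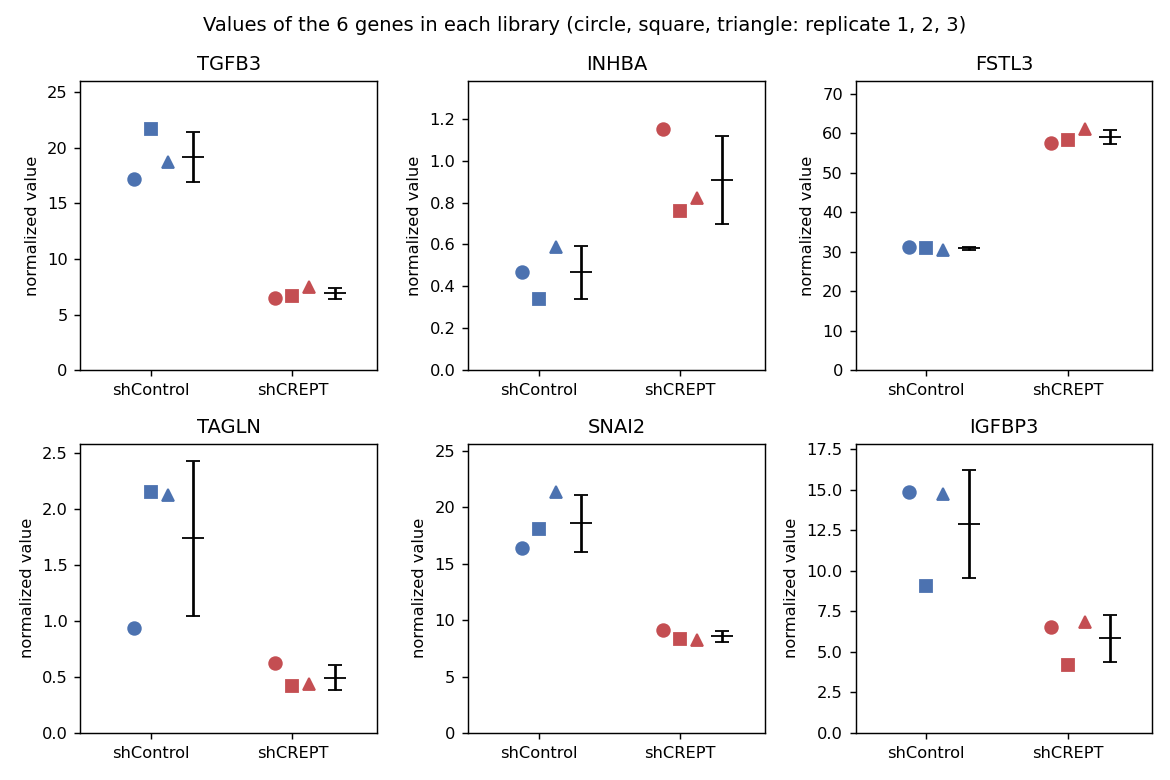
Normalized value of each gene (y axis from 0, authors' unit) in the 3 shControl libraries (blue) and the 3 shCREPT libraries (red), with circle, square and triangle for replicates 1, 2 and 3 and black bars for the mean and SD. No gene has overlapping groups; IGFBP3 has its lowest value in replicate 2 of both groups, and the control value of TAGLN in replicate 1, 0.94, is far from 2.15 and 2.12.

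TAGLN, SNAI2 and IGFBP3 are the response genes of the set. TAGLN (chromosome 11, 117199321 to 117204782, plus strand) encodes transgelin, an actin-binding protein of smooth muscle and of fibroblasts exposed to TGF-beta. Its values were 0.94, 2.15 and 2.12 in shControl and 0.62, 0.42 and 0.44 in shCREPT. The groups did not overlap, and the library nearest to the other group was shControl replicate 1. The mean went from 1.74 ± 0.690 to 0.493 ± 0.110 (SD, n = 3), and with 2 libraries at 1 or more TAGLN was not tested. The log2(value + 1) difference was −0.84, and −1.07 without shControl replicate 1. Without the filter limma gave an adjusted p of 0.0071, and the authors' deposited table marks TAGLN down, with a log2 fold change of −1.64. PCSK7, on the other strand, overlaps 446 bases of TAGLN and has no row.

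SNAI2 (chromosome 8, 48917604 to 48921740, minus strand) encodes Slug, a zinc finger repressor of E-cadherin and a driver of epithelial-mesenchymal transition. Its values were 16.36, 18.04 and 21.37 in shControl and 9.13, 8.32 and 8.26 in shCREPT. The shCREPT values lay close together, and all were below the lowest control. The mean went from 18.6 ± 2.55 to 8.57 ± 0.486 (SD, n = 3). SNAI2 fell by 1.03 ± 0.11 on the log2(value + 1) scale (SE; limma adjusted p = 0.000144).

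IGFBP3 (chromosome 7, 45912245 to 45921874, minus strand) encodes the main carrier of insulin-like growth factors in blood, also secreted by many cell types. Its values were 14.88, 9.07 and 14.74 in shControl and 6.53, 4.19 and 6.84 in shCREPT. Replicate 2 was the lowest library in both groups, and the groups still did not overlap. The mean went from 12.9 ± 3.31 to 5.85 ± 1.45 (SD, n = 3), a coefficient of variation of 25.7% in shControl and 24.8% in shCREPT. IGFBP3 fell by 1.01 ± 0.24 on the log2(value + 1) scale (SE; limma adjusted p = 0.00504), the widest error of the 4 tested genes.

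All 4 tested genes passed the threshold of 0.05, 1 higher and 3 lower in shCREPT, in a table where 97.9% of the 1184 tested genes passed, 40.6% higher and 57.3% lower. The groups did not overlap in all 6 of the genes and in 93.3% of all listed genes. Both shares are near the background of this selected table and are not a result about these genes. An exact two-sided permutation test of 3 libraries against 3 cannot go below p = 0.1, and each of the 6 genes gave that value. By the size of the authors' log2 fold change the 6 genes are middling or small: among the 973 genes marked down, TAGLN ranks 457, TGFB3 545, SNAI2 846 and IGFBP3 867, and among the 657 marked up, INHBA ranks 479 and FSTL3 573. For INHBA the ratio of mean values, 1.95, is below the fold of 2.30 in the authors' deposited table, and for TAGLN the value ratio of 3.52-fold lower is above the 3.12-fold in that table; for TGFB3 both are 2.78-fold lower. For FSTL3 the value ratio of 1.91, a log2 ratio of 0.94, is below the authors' 2.15 and under the smallest absolute log2 fold change in their deposited table, 1.0009. For SNAI2 the pair is 2.17- and 2.15-fold lower, and for IGFBP3 2.20- and 2.12-fold lower.

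**Figure D2:**
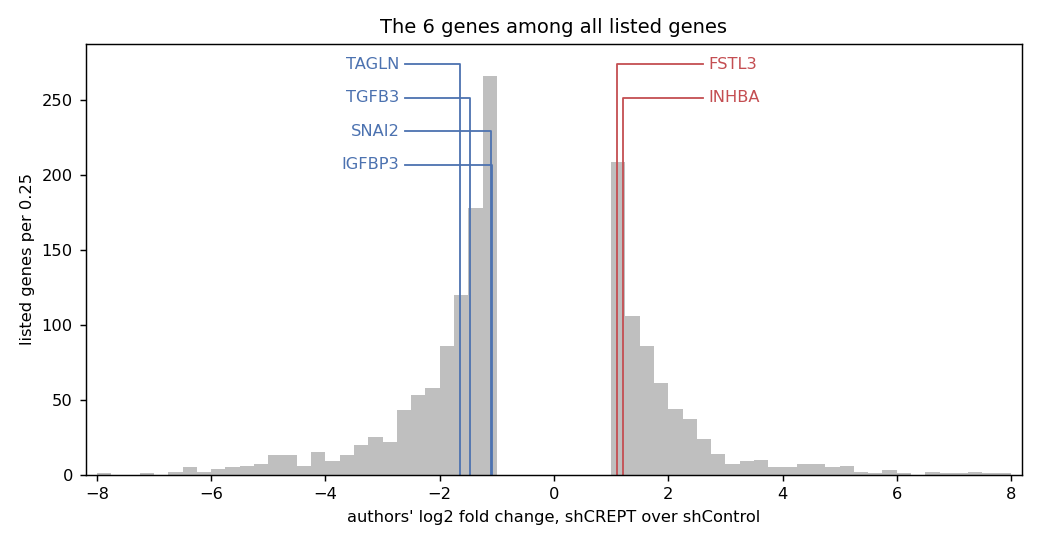
Histogram of the log2 fold change in the authors' deposited table (x axis) for all 1630 listed genes (y axis, genes per bin), with lines at the 6 genes, red for up and blue for down. The empty middle is the authors' threshold; SNAI2, IGFBP3 and FSTL3 lie close to it, and TAGLN at −1.64 is the farthest out of the 6.

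The scaling of the libraries matters for this set. A median-of-ratios rescaling over the listed genes, whose factors follow the typical listed gene, raised shCREPT relative to shControl by a log2 value of 0.88, moved the median change of the tested genes from −0.76 to −0.13 and turned the split of calls from 481 higher and 678 lower to 492 higher and 377 lower. FSTL3 then had a log2 change of 1.77 (limma adjusted p = 2.21e-06) and TGFB3 one of −0.54 (limma adjusted p = 0.00363), both still called. SNAI2 had −0.21 (limma adjusted p = 0.131) and IGFBP3 −0.23 (limma adjusted p = 0.397), so their calls were lost. Every listed gene was selected as changed, so this rescaling moves the smaller falls toward no change by construction. Whether these 2 genes fell therefore stays tied to the scaling chosen. Over 721 genes with a group mean over 5, the log2 ratio of deposited means minus the authors' log2 fold change had a median of −0.017. The deposited scaling is thus close to that of the authors' fold changes, whose method is not stated. Under quantile normalization, which moved the median to −0.53, the 4 tested genes kept their direction and call, with SNAI2 at −0.83 and IGFBP3 at −0.84. That fit called 1128 of the 1184 tested genes. Relative to the median change of the tested genes as deposited, TGFB3 was lower by a log2 value of −0.59, SNAI2 by −0.27 and IGFBP3 by −0.26, and FSTL3 was higher by 1.67. That median is taken over genes selected as changed, more of them down than up, and does not stand for an unchanged gene. A gene marked up lies above it by selection, so these offsets are a description and not changes corrected for scale.

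**Figure D3:**
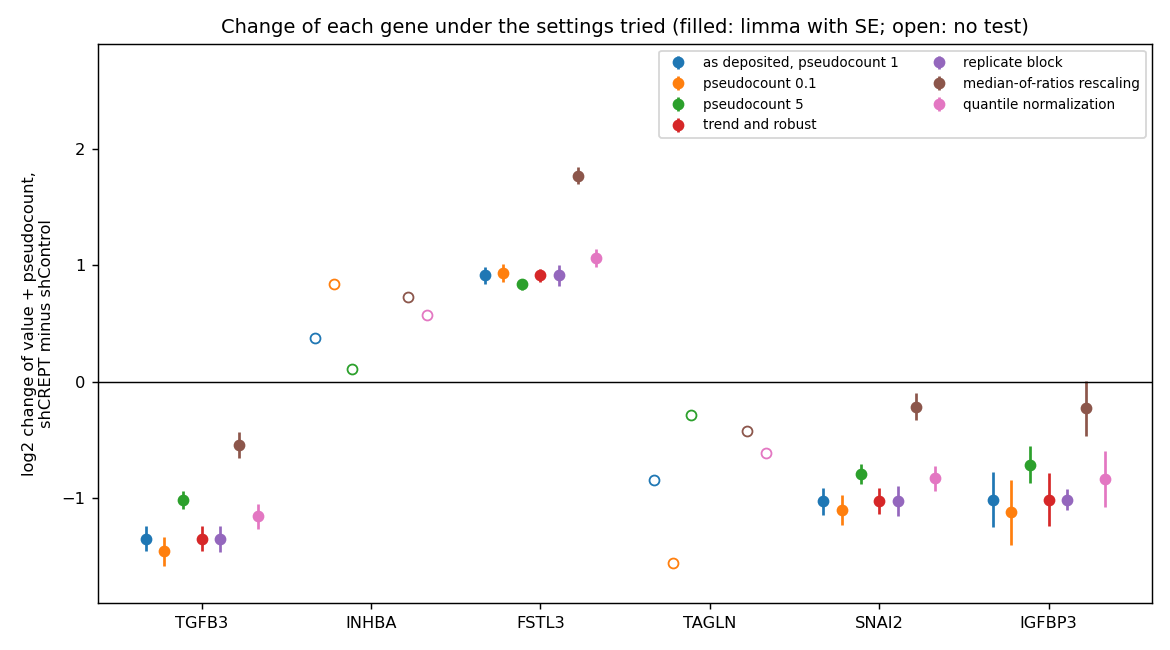
Log2 change of each gene (y axis, shCREPT minus shControl) under the values as deposited and 6 other settings, with limma SE bars for the 4 tested genes and open circles for INHBA and TAGLN, which were not tested. No gene changes sign; under median-of-ratios rescaling (brown) SNAI2 and IGFBP3 come to −0.21 and −0.23.

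Ratios of 2 genes in the same library do not change when that library is scaled by 1 factor, and they were computed for all 15 pairs. A normalization that is not 1 factor per library could change them. Each ratio is read only between groups, since the values may not be comparable between genes. TGFB3 over FSTL3 was 0.552, 0.701 and 0.613 in shControl and 0.113, 0.115 and 0.122 in shCREPT. This ratio was 5.30-fold lower in shCREPT, a log2 change of −2.41 ± 0.11 (SE from the spread of the libraries), with no overlap. The authors marked TGFB3 down and FSTL3 up, so their selection fixed the direction of this ratio in advance. INHBA over FSTL3, the activin subunit over its antagonist, was 0.0151, 0.0110 and 0.0193 in shControl and 0.0200, 0.0130 and 0.0134 in shCREPT. Here the groups overlapped, with a log2 change of 0.04 ± 0.31, so the data set no direction for this ratio at this spread.

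Among the genes that were lower, SNAI2 over IGFBP3 had a log2 change of 0.03 ± 0.33 and TGFB3 over SNAI2 one of −0.36 ± 0.16. TAGLN over IGFBP3 had −0.60 ± 0.59. All 3 of these ratios overlapped between groups, so the data do not order the falls of these genes. FSTL3 over SNAI2 went from 1.91, 1.72 and 1.43 in shControl to 6.31, 7.02 and 7.39 in shCREPT, 4.13-fold higher with no overlap. The authors marked FSTL3 up and SNAI2 down, so this direction too was fixed by their selection. Among all pairs, genes marked in opposite directions gave no overlap and genes marked alike overlapped.

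**Figure D4:**
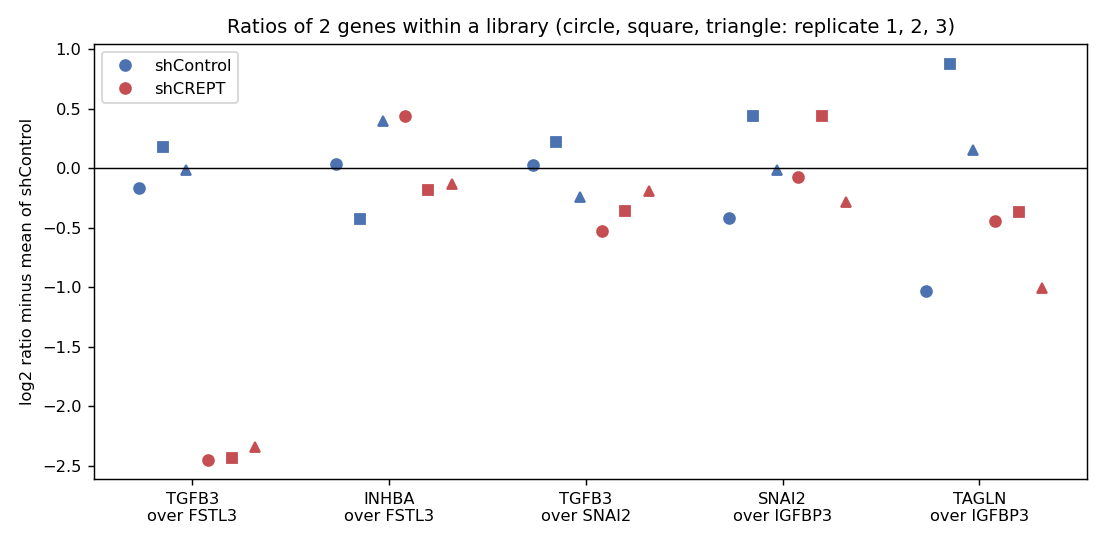
Log2 ratio of 2 genes within each library, minus the mean of shControl (y axis), for 5 pairs, with blue for shControl, red for shCREPT and circle, square and triangle for replicates 1, 2 and 3. TGFB3 over FSTL3 changes by −2.41 with the groups far apart, and the other 4 pairs overlap. Only TGFB3 over FSTL3 joins genes that the authors marked in opposite directions.

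The wider pathway was read from 10 lists holding 183 genes, of which 25 have a row and 18 were tested. All 18 passed, 4 higher and 14 lower, where 97.9% of all tested genes passed (40.6% higher, 57.3% lower), so the count itself is no result about the pathway. Without the 6 genes above, 3 were higher and 11 lower of 14 tested, with a median log2 change of −1.21 against −0.76 over all tested genes. The lists were chosen with earlier results of these data known, so these medians are a description and no test of the pathway. They also follow the split of directions, and low genes shrink on this scale. With 10 required in 3 libraries the median over all tested genes was −0.95. A missing row means only that a gene did not enter the authors' list. None of the 19 SMAD proteins and their intracellular regulators has a row, and 1 of 17 receptors does: BMPR1B, a type I receptor for bone morphogenetic proteins, fell from 3.04 ± 0.779 to 1.18 ± 0.251 (SD, n = 3), and lost its call under median-of-ratios rescaling.

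Of 18 TGF-beta and activin ligands 4 have rows. Besides TGFB3 and INHBA these are GDF15, a stress-induced member of the family, which rose from 21.4 ± 2.20 to 69.6 ± 4.57, and LEFTY2, an inhibitor of NODAL signalling, listed at 0.30, 0.07 and 0.30 in shControl and at 0 in all shCREPT libraries. Of 15 bone morphogenetic protein ligands, BMP6 has a row and rose from 0.627 ± 0.150 to 2.20 ± 0.140 (SD, n = 3). Among genes that release latent TGF-beta, the 2 with a row fell, in a table where 57.3% of tested genes did: THBS1, thrombospondin 1, from 168 ± 6.87 to 25.9 ± 0.648 and ITGB8, the integrin beta 8 subunit, from 32.5 ± 1.03 to 14.0 ± 0.941. The list of latency and activation holds 15 other genes with no row.

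Of 16 extracellular antagonists 3 have rows, and they did not move as 1 group. FSTL3 rose, while BMPER, which binds bone morphogenetic proteins, fell from 12.5 ± 2.19 to 1.53 ± 0.544 and DAND5, a NODAL antagonist, from 1.56 ± 0.256 to 0.603 ± 0.197 (SD, n = 3); DAND5 lost its call under median-of-ratios rescaling.

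Of 28 known target genes 7 have rows, all marked down by the authors, who marked 59.7% of listed genes down, and 5 of 5 tested fell, of which SNAI2 and IGFBP3 lost the call under that rescaling. The other tested targets are LOX, which crosslinks collagen (88.2 ± 3.38 to 16.8 ± 0.414), the collagen chain COL1A2 (1093 ± 7.81 to 467 ± 31.8) and the angiogenic factor VEGFA (559 ± 12.3 to 242 ± 3.76). COL3A1 was too low to be tested, at 0.39, 0.11 and 0.05 in shControl and 0, 0.01 and 0.01 in shCREPT. CCN2, SNAI1, ACTA2 and the ID genes, often read as targets, have no row, and SNAI2 is the 1 gene with a row among 17 of epithelial-mesenchymal transition.

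Of 21 smooth muscle and serum response factor genes 3 have rows. With TAGLN these are CALD1, an actin and myosin regulator, which fell from 77.6 ± 4.44 to 20.0 ± 1.72 (SD, n = 3), and ACTG2, listed at 0.09, 0.46 and 0.20 in shControl and at 0 in each shCREPT library. Markers of smooth muscle cells and pericytes gave 2 rows of 8, KCNJ8 and ACTG2, summing to 2.88 to 3.77 in shControl and 1.28 to 1.46 in shCREPT, and MYH11, CNN1 and DES have no row. Fibroblast markers gave 3 rows of 7, COL1A2, PDGFRA and COL3A1, summing to 1135 to 1156 in shControl and 440.4 to 501.5 in shCREPT. These sums are mostly COL1A2, and PDGFRA alone went from 52.7 ± 3.41 to 9.48 ± 0.862 (SD, n = 3). The libraries are of a cell line, U87MG, so these rows do not count fibroblasts, smooth muscle cells or pericytes. Any link of these markers to the lower TAGLN and SNAI2 values was not tested. In bulk libraries a change in all cells and a change in some of them cannot be told apart.

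Of 20 genes of the insulin-like growth factor axis 6 have rows, and the binding proteins were split. IGFBP3, IGFBP5 (126 ± 6.07 to 39.3 ± 0.765) and IGFBP7 (279 ± 24.0 to 120 ± 4.77) fell, and IGFBP4 rose from 1.41 ± 0.07 to 5.18 ± 0.354 (SD, n = 3). Under median-of-ratios rescaling IGFBP5 and IGFBP7 remained called lower and IGFBP3 did not. IGF1, the ligand, was listed at 0.24, 0.64 and 0.04 in shControl and 0, 0.02 and 0 in shCREPT, and PAPPA2, a protease of binding proteins, at 0.12, 0.08 and 0.05 against 0.19, 0.27 and 0.29; neither was tested.

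**Figure D5:**
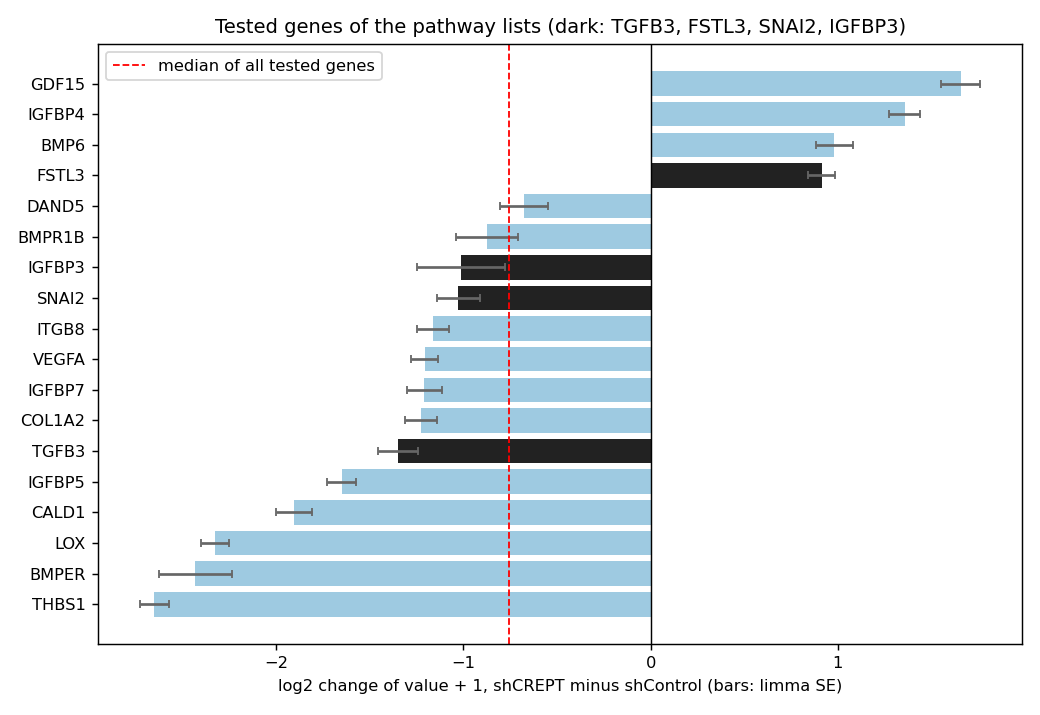
Log2 change of value + 1 (x axis, shCREPT minus shControl, bars for limma SE) for the 18 tested genes of the pathway lists, with TGFB3, FSTL3, SNAI2 and IGFBP3 dark and the median of all tested genes, −0.76, as a dashed line. GDF15, IGFBP4, BMP6 and FSTL3 are above 0, and THBS1 has the lowest value, −2.65.

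The genes most like each tested gene were taken by Pearson's r of log2(value + 1) over the 6 libraries, as a description, and by distance. TGFB3 was most like GASK1B (r = 0.999), C1orf226 and VCAN, FSTL3 like KLHL29 (r = 0.999), GADD45A and C1QBP, and SNAI2 like ITGB4 (r = 0.998), ENSG00000279375 and PCDHGA4. These values are common in a table picked for 1 contrast: 432 of the other 1183 tested genes reached r of 0.95 with TGFB3, 314 with FSTL3 and 338 with SNAI2. IGFBP3 had only 8 such genes, led by NDRG1 (r = 0.998), a gene known to respond to hypoxia, then PADI3 and CFD. NDRG1 had values of 126.3, 88.4 and 135.5 in shControl and 64.7, 46.7 and 67.7 in shCREPT, so it too was lowest in replicate 2 of each group. Nearest in level and change together were FAM13C and LHPP to TGFB3, RCC1 and KLC2 to FSTL3, SLC2A3 and CPQ to SNAI2, and SEC14L2 and IFNAR2 to IGFBP3.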

How the data were processed

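RNA of 6 U87MG libraries was measured, 3 shControl and 3 shCREPT; libraries were made with NEBNext Ultra reagents from column-purified RNA, per the labels' protocols. The submitters' processing notes name HISAT2, HTSeq and GRCh38 without versions; the normalization method is not stated there. The deposited table of 1630 genes holds, per the file headers, a signal value per library that the authors normalized, with 2 decimals. It also holds the authors' ratio of groups (fold change), the log2 of that ratio, and the p-value of their test before and after adjustment. Whole reads were not recovered: low values pooled over genes took 28 to 29 of the hundredths from 0.01 to 0.29, but if values are scaled by gene length this check could not show a step of 1 read. Depth is unknown and no count test was run. Any 2 libraries had equal values in at most 4.05% of genes, and each was kept as a replicate.

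Values were tested as log2(value + 1) with limma 3.58.1 in R 4.3.3 over genes with at least 1 in at least 3 libraries (1184 tested, 446 not), all 6 libraries, no covariate, Benjamini-Hochberg threshold 0.05; this step was tested on simulated data. The members, the 10 pathway lists and the 6 marker lists were chosen with earlier results of these data known. Genes named are the members, the listed pathway genes with a row, and for each tested member the 3 genes highest in r and the 2 nearest in distance. The ratios between members were added after the values were seen. Of the members, 4 matched a RefSeq promoter entry among those searched, on GRCh38.p14, and the promoters of SNAI2 and TAGLN were not examined. Myeloid markers (7) had no row; endothelial markers gave KDR and CDH5, both marked down (sums 43.3 to 45.3 against 11.6 to 13.7), and epithelial markers KRT19 down and CLDN4 up (5.55 to 7.06 against 20.8 to 23.8). Alternatives were other pseudocounts, filters and scalings, trend and robust options, a replicate block and each library left out. Python 3.11.15, pandas 2.3.3, numpy 2.4.6, scipy 1.17.1 and matplotlib 3.10.9 were used.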

Additional observations from a re-analysis of the deposited data

How the results depend on the processing

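TGFB3 and FSTL3 kept their direction and call under all 14 alternatives, with log2 changes of −1.46 to −0.54 and 0.84 to 1.77. Most tested genes were called in every alternative, with the smallest share, 869 of 1184, under median-of-ratios rescaling. In this selected table, kept calls alone are therefore no result about these genes. Median-of-ratios rescaling ended the calls of SNAI2 (−0.21) and IGFBP3 (−0.23), and gave INHBA 0.73 and TAGLN −0.43; it raises shCREPT by construction. Quantile normalization gave INHBA 0.57. A pseudocount of 0.1 gave INHBA 0.84 and TAGLN −1.56, and one of 5 gave 0.11 and −0.29, since the pseudocount sets how far low genes shrink. Requiring 10 in 3 libraries left 487 genes to test, of which 485 were called, with 2 pathway genes higher; IGFBP3, INHBA and TAGLN then had no value. Leaving out each library in turn ended no call of these genes, in fits that called 1137 to 1152 of the 1184 tested genes. Deviations from the group means did not go together in libraries of 1 number (r = −0.11, 0.02 and −0.18 across tested genes). No shControl library correlated best with the shCREPT library of its own number. Of the shCREPT libraries, only replicate 2 correlated best with the shControl library of its own number. Pairing by number was thus not seen across tested genes. IGFBP3 did deviate alike by number, by 0.22, −0.43 and 0.21 in shControl and 0.16, −0.38 and 0.22 in shCREPT. The replicate block called 1156 genes against 1159 and gave IGFBP3 the same change with an SE of 0.09 (limma adjusted p = 0.000593); for INHBA and TAGLN no paired value was computed. Depth is unknown and sets no bound.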
